A study of Sus scrofa with 12 samples.

Results

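Skeletal muscle of 14-day-old pigs was set against that of newborn pigs in 6 of the 12 arrays of a study of muscle in the first weeks of life. The members were the 3 arrays labelled day 14 and the 3 labelled day 0, from piglets less than a day old, taken by their labels with the control probe sets left out. The other 6 arrays, at days 7 and 21, entered the fit and give the ages on either side. Every sample was labelled skeletal muscle and called a biological replicate. The labels name no muscle, breed, sex, litter or treatment, and do not say that each array held a separate animal, so p-values measure the spread between these samples.

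Pig muscle has its full number of fibres close to birth and grows afterwards by enlarging them. Over the same weeks fibres exchange developmental forms of the contractile proteins for adult fast and slow ones, and enzymes of glycolysis, on which fast fibres draw, build up. The newborn also leaves a protected womb for a world of milk, cold and microbes, and its immune and blood vessel cells mature within the muscle.

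The signal of a probe set, the short probes that read 1 transcript on an Affymetrix array, was scaled by the authors so that each array had a trimmed mean of 500.1. Of 23999 probe sets that are not controls, the dimmest 40% were left out (mean signal under 90.3), and of the 14399 tested 7144 carried 1 gene symbol and stood for 5296 genes. Changes are log2 differences of mean signal, day 14 minus day 0, given ± SE with n = 3 arrays per age. A gene rose or fell where limma gave a Benjamini-Hochberg adjusted p under 0.05 over all probe sets tested. The signal of 1 probe set cannot be set against that of another, and 3 arrays per age limit the precision. Between day 14 and day 0, 1777 probe sets passed (12.3%), of which 971 were higher (6.74% of those tested) and 806 lower (5.6%) at day 14, and 590 and 314 of these by at least 2-fold. By gene, 837 passed (15.8%), 384 higher (7.25% of genes tested) and 453 lower (8.55%). Of these 837, 820 had day 14 values that did not overlap the day 0 values, against 33% of all genes tested. Most list members were named in order of p among those that passed, so their lack of overlap is no separate support. The change of the median gene was -0.04.

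The age groups also differed in measures of the arrays themselves. Hybridization controls, RNAs added in fixed amount, averaged 12.57 at day 14 (12.48 to 12.70) and 12.20 at day 0 (12.09 to 12.26) in log2 signal. For the poly-A spikes, RNAs added before labelling, 3' signal over 5' signal (log2) averaged 0.48 at day 14 (0.40 to 0.54) and 0.98 at day 0 (0.66 to 1.59), with the highest value in day 0 replicate 2, and the smallest exact two-sided p that 3 against 3 arrays allow is 0.1. Control probe sets for 28S ribosomal RNA averaged 12.58 at day 14 (12.22 to 12.79) and 11.50 at day 0 (11.04 to 11.89), a difference of 1.08 without overlap, and those for 18S ribosomal RNA 10.70 at day 14 (10.45 to 10.86) and 10.33 at day 0 (9.78 to 11.03), which overlapped. The part of these measures in the gene results was not tested. With signals scaled to the hybridization controls the median gene lay at -0.40, and 396 probe sets were higher and 2554 lower. With each array centred on its median the split was 733 higher and 1226 lower. With the spike ratio as a covariate 498 probe sets passed. Day 0 replicate 3 correlated with the day 14 arrays at 0.893 to 0.919 over the probe sets tested, the other day 0 arrays at 0.872 to 0.891. Day 14 arrays correlated with each other at 0.942 to 0.945 and day 0 arrays at 0.912 to 0.929. The number of probe sets that passed was 792 without day 14 replicate 3 and 1029 without day 14 replicate 2.

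The label was checked against defining markers of skeletal muscle. All 10 of the markers in the probe table were bright enough to test, and their summed signal was 388149 to 414788 at day 14 and 237302 to 332260 at day 0. Of these 10, 4 rose and 1 fell (DES, the intermediate filament desmin, -0.51 ± 0.14, adjusted p = 0.0321). DES missed the threshold when any 1 day 14 or day 0 array other than day 0 replicate 1 was left out (adjusted p = 0.0531 to 0.11). With day 0 replicate 3 left out 8 of the 10 rose, and with replicate 1 or 3 of day 14 or replicate 1 or 2 of day 0 left out 2 did. In whole tissue, fewer cells of a type and less RNA per cell cannot be told apart.

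**Figure D1:**
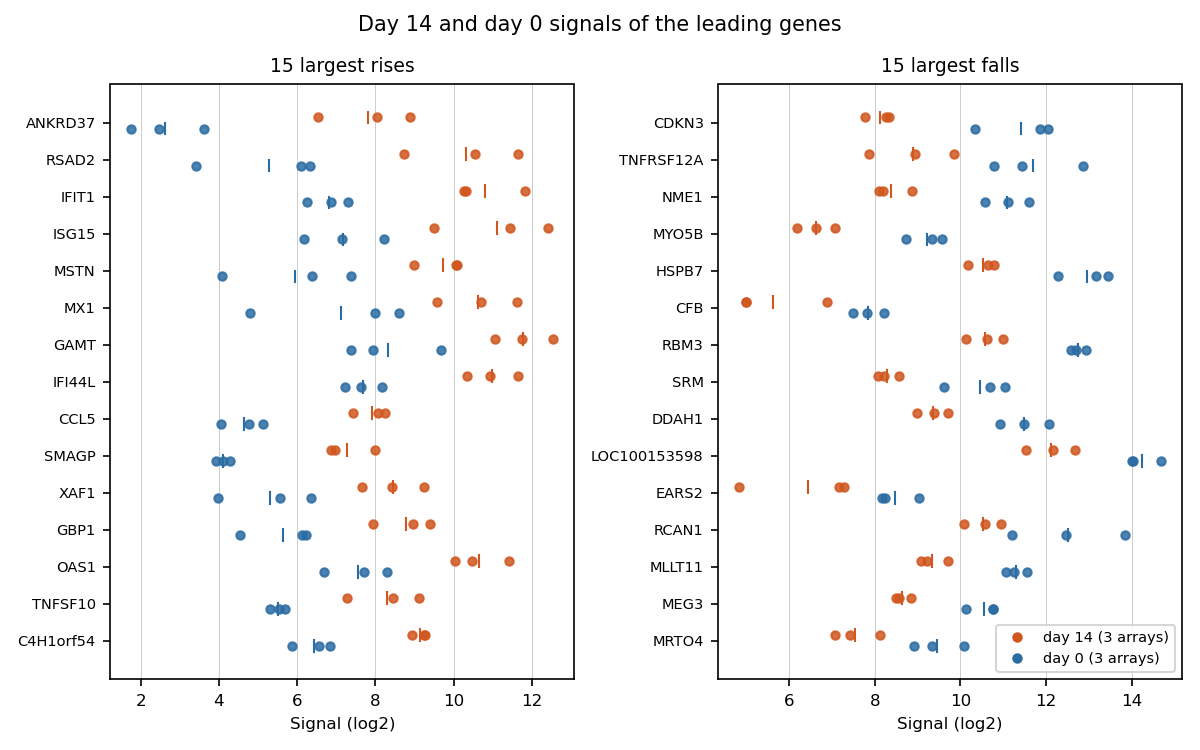
Log2 signal of the 15 genes with the largest rises and the 15 with the largest falls between day 14 and day 0, one point per array and a bar at the mean of 3. Each row's day 14 points lie wholly on one side of its day 0 points, as the choice of genes required, and the scale is to be read within a gene.

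Of the 15 largest rises 8 were in interferon-induced genes, while the largest of all was in ANKRD37, which is not on that list. ANKRD37, a target of the hypoxia-inducible factors, had signals of 93.1, 472.6 and 260.8 at day 14, against 12.3, 3.4 and 5.5 at day 0. Its newborn signals were far below the brightness limit of 90.3, and the change of 5.20 ± 0.65 (adjusted p = 0.00108) became 2.84 when an offset of 29.7 was added before the logarithm. MSTN, myostatin, the secreted brake on muscle growth, had signals of 508.2, 1069.6 and 1088.3 at day 14, against 83.2, 17 and 165.9 at day 0. It rose by 3.77 ± 0.62 (adjusted p = 0.00309), or by 3.11 with the offset. GAMT, which makes creatine in its last step, had signals of 2133, 5939.9 and 3424.9 at day 14, against 245.4, 166.7 and 816.5 at day 0. Its rise of 3.45 ± 0.48 (adjusted p = 0.00143) came without overlap between the ages, as the choice of leading genes required. Day 0 replicate 3 was its highest newborn array.

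A further 4 of the leading rises were CCL5, TNFSF10, SMAGP and C4H1orf54. CCL5, a chemokine that draws T cells, had signals of 266.2, 171.1 and 304.3 at day 14, against 27.2, 16.5 and 34.7 at day 0, a change of 3.27 ± 0.46 (adjusted p = 0.00157). TNFSF10, the death ligand TRAIL, rose by 2.77 ± 0.50 (adjusted p = 0.00444). SMAGP, a small membrane protein of cell contacts, rose by 3.16 ± 0.39 (adjusted p = 0.00102), or 1.98 with the offset. C4H1orf54, an open reading frame named in the probe table, rose by 2.73 ± 0.34 (adjusted p = 0.00108). Day 0 values of 9 of the 15 leading genes averaged below the brightness limit of 90.3, so the sizes of their folds depend on how dim signals were measured. None of these 4 genes overlapped between the ages, as the choice of leading genes required.

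Among the 15 largest falls were CDKN3, TNFRSF12A and RBM3. CDKN3, which takes phosphate off cyclin-dependent kinases, had signals of 322.4, 218.8 and 306.1 at day 14, against 4226.1, 3697 and 1294.8 at day 0, and fell by 3.29 ± 0.35 (adjusted p = 0.000416). TNFRSF12A, the receptor of the cytokine TWEAK, had signals of 491.2, 234.8 and 916.9 at day 14, against 7502.2, 2776.1 and 1761.3 at day 0, and fell by 2.81 ± 0.55 (adjusted p = 0.007). RBM3, an RNA-binding protein induced by mild cold, had signals of 2027.7, 1565.7 and 1115.2 at day 14, against 6699.2, 6101.2 and 7818.3 at day 0, and fell by 2.17 ± 0.21 (adjusted p = 0.00019). All 3 were separated between the ages, as the choice of genes required, and RBM3 had the narrowest spread, with newborn values within 6101.2 to 7818.3.

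Among the remaining falls, DDAH1, which breaks down an inhibitor of nitric oxide synthase, fell by 2.13 ± 0.35 (adjusted p = 0.00287). MYO5B, a motor that carries vesicles along actin, fell by 2.58 ± 0.31 (adjusted p = 0.000887). MLLT11 fell by 1.96 ± 0.30 (adjusted p = 0.0022), and LOC100153598, which the tables name no further, fell by 2.12 ± 0.33 (adjusted p = 0.00255). RCAN1, an inhibitor of calcineurin, had signals of 1516.7, 1079.9 and 1994.1 at day 14, against 14736, 5682.6 and 2375.7 at day 0. The newborn values of RCAN1 spread widely, and it fell by 1.98 ± 0.52 (adjusted p = 0.0271). This missed the threshold when any 1 day 14 or day 0 array other than day 0 replicate 3 was left out (adjusted p = 0.0524 to 0.0947). CFB, complement factor B, fell by 2.22 ± 0.50 (adjusted p = 0.0133), with an adjusted p of 0.055 without day 14 replicate 3 and 0.051 without day 0 replicate 2. EARS2, the mitochondrial glutamyl-tRNA synthetase, fell by 2.05 ± 0.55 (adjusted p = 0.0295), and its adjusted p was 0.0678, 0.0876 and 0.0581 without day 14 replicate 2, day 0 replicate 1 and day 0 replicate 2.

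**Figure D2:**
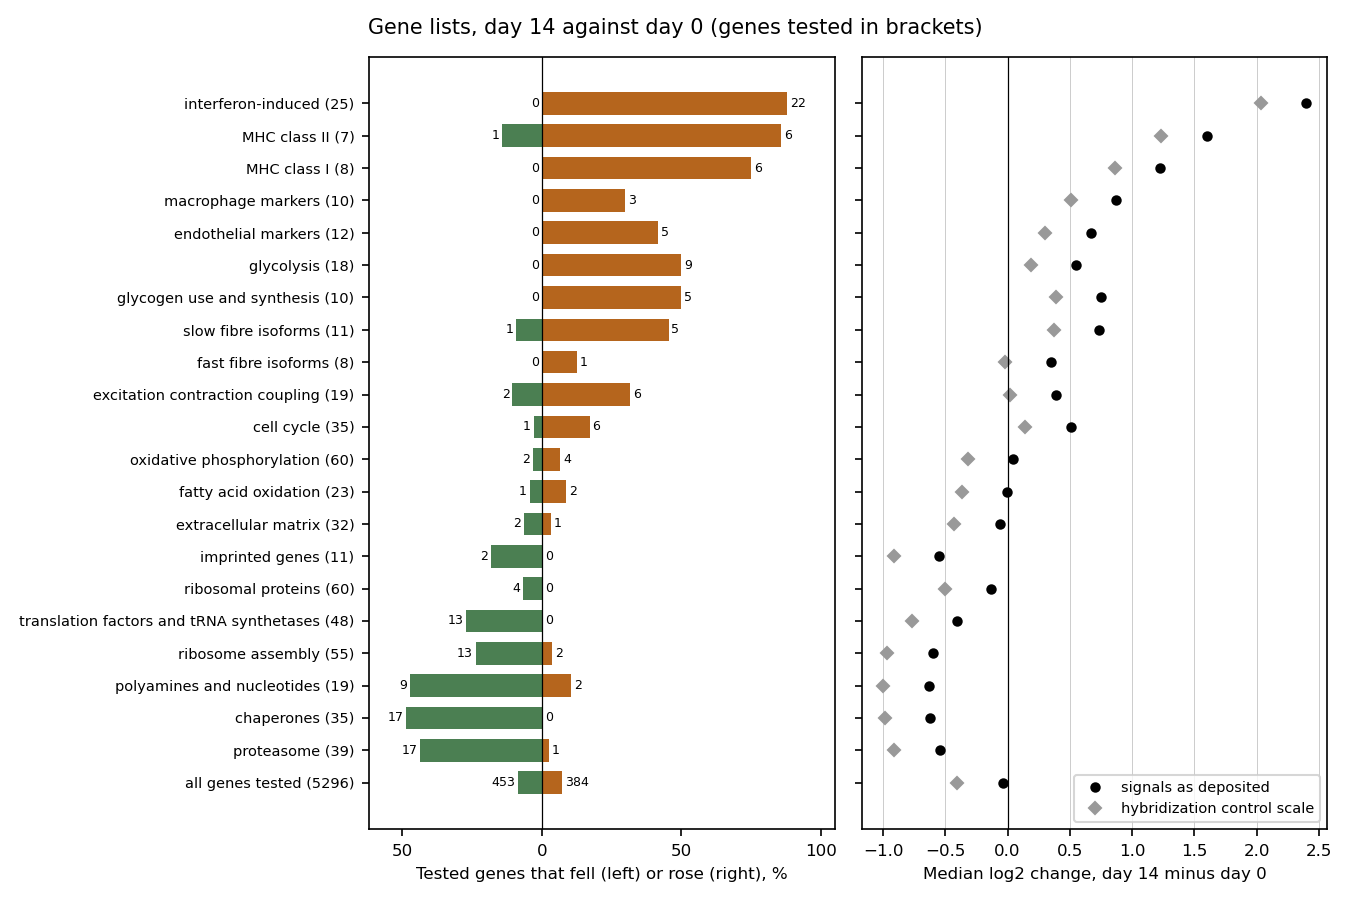
Left, share of each list's tested genes that rose (right bars) or fell (left bars) at day 14 against day 0, with the counts beside the bars; right, the list's median log2 change with signals as deposited (circles) and scaled to the hybridization controls (diamonds). Interferon-induced genes lie farthest to the right and chaperone, ribosome assembly, proteasome and polyamine genes to the left, with all 5296 genes in the bottom row.

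Interferon-induced genes, the proteins that infected or warned cells make to block viruses, were higher at day 14 than in newborn muscle. Of 25 tested, 22 rose and 0 fell, with a median change of 2.40 against -0.04 for all genes (384 of 5296 rose). Day 0 means of 7 of the 25 lay below the brightness limit, against 160 of all 5296 genes, and 0 of the 25 did at day 14. Those 7 were kept for testing by their signal at later ages, so the count and the median depend in part on the filter. With the offset added before the logarithm 22 rose, at a median of 2.22. RSAD2, the antiviral enzyme viperin, had signals of 1496.7, 426.3 and 3209.9 at day 14, against 10.6, 68.2 and 80.4 at day 0, and rose by 5.03 ± 1.20 (adjusted p = 0.0172). IFIT1, which binds foreign RNA, had signals of 1265, 1224 and 3625.4 at day 14, against 115.9, 75.6 and 158.3 at day 0, and rose by 3.99 ± 0.63 (adjusted p = 0.00258), or by 3.04 as the mean of its probe sets. ISG15, a ubiquitin-like tag, had signals of 2753.5, 727.1 and 5399.2 at day 14, against 72.7, 140.9 and 297.4 at day 0, and rose by 3.93 ± 0.91 (adjusted p = 0.0152). In each of the 3 genes day 14 replicate 3 was highest. No day 14 value overlapped day 0, as their choice among the largest rises required.

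Further members rose with them. IFI44L, of little known function, rose by 3.30 ± 0.45 (adjusted p = 0.00141), and OAS1, which makes the alarm molecule that activates RNase L, by 3.07 ± 0.58 (adjusted p = 0.00575). UBD, another ubiquitin-like tag, rose by 2.55 ± 0.39 (adjusted p = 0.00214). EIF2AK2, the double-stranded RNA kinase PKR, had signals of 2389.2, 1282.7 and 3588.3 at day 14, against 365.9, 447.4 and 458.6 at day 0, and rose by 2.40 ± 0.41 (adjusted p = 0.00385). MX1, an antiviral GTPase, rose by 3.50 ± 0.92 (adjusted p = 0.0251). GBP1, a GTPase that coats intracellular microbes, rose by 3.14 ± 0.77 (adjusted p = 0.0197), and XAF1 by 3.14 ± 0.92 (adjusted p = 0.0412).

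These genes stood at different heights in the 3 day 14 arrays. The members' mean deviation from each gene's mean over 12 arrays was 1.10, 0.41 and 1.76 at day 14, against -1.63, -1.14 and -0.98 at day 0. With the highest array, day 14 replicate 3, left out, 7 of 25 rose, and with the spike ratio as a covariate 7 did, while under hybridization control scaling the median was 2.03. The adjusted p without day 14 replicate 3 was 0.074 for RSAD2, 0.0676 for ISG15, 0.0993 for MX1, 0.0787 for GBP1 and 0.139 for XAF1. Without day 0 replicate 1 it was 0.0569 for RSAD2, 0.0694 for MX1, 0.065 for GBP1 and 0.0695 for XAF1. Leaving out day 14 replicate 1 gave 0.0615 for MX1, 0.0541 for GBP1 and 0.0891 for XAF1, and XAF1 also missed the threshold in the fits lacking replicate 2 of day 14 (0.0619) or of day 0 (0.141).

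Set beside the other ages, which share the day 0 arrays, the list's median change from day 0 was 1.14 at day 7, 2.40 at day 14 and 1.50 at day 21. The day 14 mean was the highest of the 4 ages in 23 of the 25 genes, and in 17.5% of all genes. At day 7 the mean deviations of the members were 1.15, -0.67 and -0.74, so replicate 1 of that age was as high as day 14 while the other two were not. At day 21 they were 0.55, 0.09 and 0.11. No interferon-induced gene passed between day 14 and day 7 or between day 21 and day 14.

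**Figure D3:**
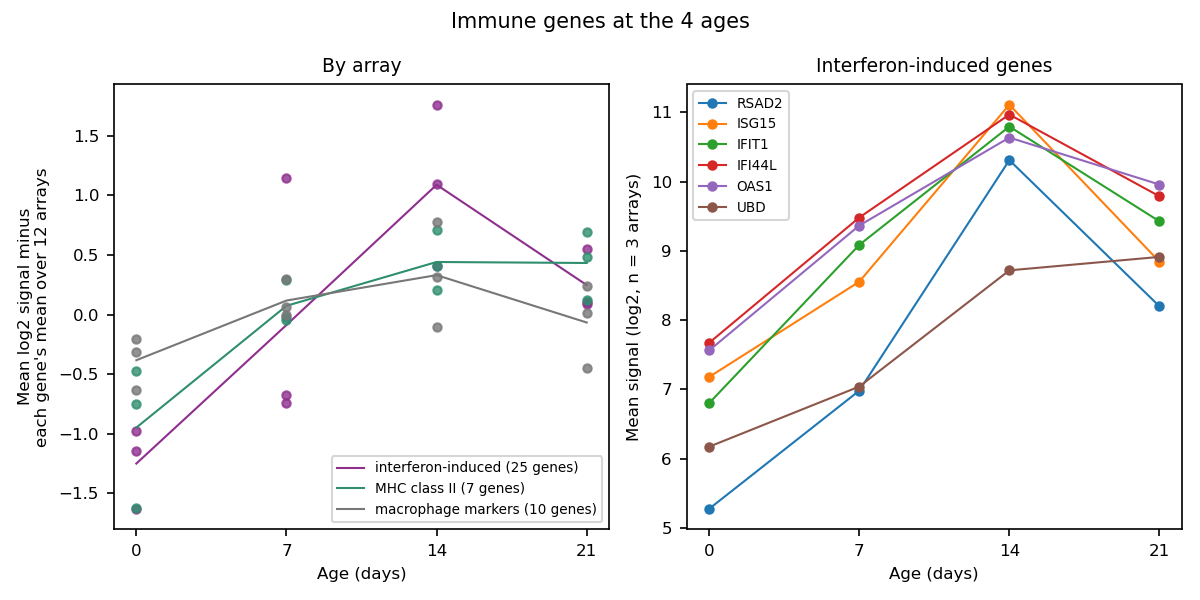
Left, mean deviation of a list's genes from each gene's mean over 12 arrays (log2), one point per array and a line through the age means, for 3 immune lists; right, mean log2 signal (n = 3 arrays) of 6 interferon-induced genes. Interferon-induced genes are highest at day 14, with 1 of the 3 day 7 arrays equally high, while the MHC class II line is level from day 14 to day 21.

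Genes that present antigens on cell surfaces were higher at day 14 as well. Of 7 MHC class II genes, whose products show peptides to helper T cells, 6 rose and 1 fell, with a median of 1.60. SLA-DRB1, the beta chain of the pig DR molecule, had signals of 1616.9, 1604.4 and 1927.6 at day 14, against 316.6, 384.6 and 435 at day 0, and rose by 2.19 ± 0.21 (adjusted p = 0.000187). Its alpha chain partner SLA-DRA had signals of 2618.9, 1935.7 and 3809.4 at day 14, against 237.9, 697.3 and 927.8 at day 0, and rose by 2.32 ± 0.42 (adjusted p = 0.00442). SLA-DQA1 and SLA-DQB1, the chains of the DQ molecule, rose by 1.60 ± 0.23 (adjusted p = 0.00174) and 1.89 ± 0.37 (adjusted p = 0.00641). The DR and DQ genes did not overlap between the ages, like nearly all genes that passed. Their day 14 arrays lay closer together than for the interferon-induced genes. The 1 class II gene that fell was SLA-DMA (-0.75), of the peptide loading machinery, which had probe sets called in opposite directions and was named after its value was seen. CD74, the invariant chain of class II molecules, rose by 1.31 ± 0.33 (adjusted p = 0.0215), which was 0.0932 with day 14 replicate 3 left out and 0.0635 with day 0 replicate 1 left out.

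Of 8 MHC class I genes, which show peptides of the cell's own making, 6 rose and 0 fell, with a median of 1.23. SLA-2, a classical class I gene, had signals of 8379.1, 8222.2 and 13711 at day 14, against 3524.3, 3472 and 4373.8 at day 0, and rose by 1.38 ± 0.26 (adjusted p = 0.0058). TAP1, which pumps peptides into the endoplasmic reticulum and is also on the interferon list, had signals of 500.6, 357.7 and 1287.1 at day 14, against 115.9, 222 and 173.8 at day 0, and rose by 1.90 ± 0.47 (adjusted p = 0.0197). The class I heavy chains are near-identical copies that share probes, so the separate values of SLA-2, SLA-3 and SLA-6 are uncertain. The number that rose was 1 with day 14 replicate 3 left out (TAP1 then had an adjusted p of 0.0795), 2 with day 0 replicate 2 left out, and 3 with replicate 1 of either age left out. TAP1 had an adjusted p of 0.0615 in the fit lacking day 0 replicate 1. With the spike ratio as a covariate the class I count was 0 and the class II count 4.

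Some markers of immune and blood vessel cells also rose. Of 10 macrophage markers, all of those in the probe table, 3 rose (30%, against 7.25% of all genes tested) and 0 fell. Their median was 0.87, with summed signals of 4512.4 to 8841.3 at day 14 and 2666.8 to 3886.4 at day 0. CTSS, a protease, rose by 1.60 ± 0.31 (adjusted p = 0.00686), and LAPTM5, a lysosomal protein of blood cells, by 1.59 ± 0.32 (adjusted p = 0.00877). C1QC, a chain of complement C1q, rose by 1.35 ± 0.39 (adjusted p = 0.0392), and missed the threshold with any of 4 arrays left out, day 14 replicates 1 and 3 and day 0 replicates 1 and 2 (adjusted p = 0.064 to 0.147). With the spike ratio as a covariate 1 macrophage marker rose. Among the lymphocyte markers 2 of 11 were bright enough to test, of which CCL5 rose and JCHAIN, the joining chain of antibodies, changed by -0.24 without passing. Of 3 neutrophil markers 1 was tested, S100A9, at 0.19 without passing. The part that a change in cell makeup played in the antigen presentation and interferon genes was not tested.

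Of 12 endothelial markers 5 rose (41.7%, against 7.25% of all genes tested) and 0 fell. Their median was 0.67, with summed signals of 10366.1 to 11251.8 at day 14 and 6603.3 to 7440 at day 0. ERG, a transcription factor of endothelium, had signals of 610.1, 601.3 and 629.1 at day 14, against 284.4, 296.1 and 308.7 at day 0, and rose by 1.05 ± 0.17 (adjusted p = 0.00284). CDH5, the cadherin of endothelial junctions, had signals of 1877.1, 1868.9 and 1972.5 at day 14, against 1009.3, 784.1 and 688.3 at day 0, and rose by 1.22 ± 0.23 (adjusted p = 0.00573). TEK, the angiopoietin receptor TIE2, rose by 1.26 ± 0.24 (adjusted p = 0.0062). ERG values were tight at each age, with a day 14 range of 601.3 to 629.1 and a day 0 range of 284.4 to 308.7. Of 5 smooth muscle and pericyte markers 3 rose, led by RGS5, a pericyte regulator of G-protein signals, which rose by 1.45 ± 0.19 (adjusted p = 0.00129). Of these 5, 1 rose when replicate 2 or replicate 3 of day 14 was left out, and 3 of the 12 endothelial markers rose with day 14 replicate 2 left out. Under hybridization control scaling 3 endothelial markers rose and 1 fell, at a median of 0.30, and 1 pericyte marker rose, as it did with the spike covariate.

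Other markers passed in 1 gene. Of 6 fibroblast markers 0 passed in limma, with 3 higher and a median of 0.07. Of 2 Schwann cell markers tested 0 passed, and 1 rose with day 0 replicate 1 left out. Their summed signal was 5701.7 in that array, 1196.4 and 1029.5 in day 0 replicates 2 and 3, and 1260.7 to 1844.6 at day 14. Of 5 adipocyte markers 0 passed, with 4 higher, a median of 0.63 and summed signals of 8188.7 to 14041.6 at day 14 and 5759.5 to 8896.8 at day 0, which overlapped. The adipocyte and erythroid medians were about as large as those of the endothelial and pericyte markers. Among 4 erythroid markers HBB, the beta chain of haemoglobin, had signals of 577.4, 743.5 and 556.3 at day 14, against 2071, 1174.6 and 1035.7 at day 0, and fell by 1.13 ± 0.24 (adjusted p = 0.00933), while 3 were higher without passing, and the median of the 4 was 0.61. Red cells carry RNA only while young, and HBB did not overlap between the ages.

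Contractile genes were mostly bright at both ages, and MYH2 stood out. MYH2 encodes the heavy chain of type IIa myosin and had signals of 50461.6, 58335.4 and 48552.2 at day 14, against 5402.5, 6747.6 and 15660.7 at day 0. The day 14 arrays lay close together and far above all newborn arrays, of which replicate 3 was the highest, and MYH2 rose by 2.66 ± 0.28 (adjusted p = 0.000416). Of 15 fast isoform genes sought, 8 were in the probe table and tested, and the myosin genes MYH1 and MYH4 carried no symbol there. Of the 8 tested, MYH2 was the 1 that rose (12.5%, against 7.25% of all genes tested), and 0 fell. The median was 0.35, or -0.02 under hybridization control scaling. Without day 0 replicate 3, 4 of the 8 rose, and without day 14 replicate 1, 2 did.

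Of 11 slow fibre genes 5 rose (45.5%, against 7.25% of all genes tested) and 1 fell (9.09%, against 8.55%), at a median of 0.74. Scaled to the hybridization controls, 2 rose and 2 fell and the median was 0.37, and the difference between the slow and fast lists was not tested. MYL2, the slow regulatory light chain, had signals of 50906, 39499.3 and 45519 at day 14, against 20785.4, 19154 and 30872.3 at day 0, and rose by 0.97 ± 0.17 (adjusted p = 0.00441). TNNT1, slow troponin T, had signals of 40149.7, 19915.5 and 34498.8 at day 14, against 11079.5, 14186.5 and 15788.4 at day 0, and rose by 1.16 ± 0.23 (adjusted p = 0.00775). In both genes the ages did not overlap, and for MYL2 day 0 replicate 3 lay nearest to day 14. MYH7, the slow myosin heavy chain, had signals of 42300.7, 28712.7 and 35740 at day 14, against 18540.7, 19921.8 and 30194 at day 0, which overlapped, and its rise of 0.65 ± 0.19 (adjusted p = 0.0403) was not kept without day 14 replicate 1 (0.137), day 14 replicate 3 (0.11), day 0 replicate 1 (0.114) or day 0 replicate 2 (0.122). TNNC1, slow troponin C, rose by 0.91 ± 0.20 (adjusted p = 0.0132), with an adjusted p of 0.0561 without day 14 replicate 3. The count of slow genes that rose was 8 when day 0 replicate 3 was left out, 2 when day 14 replicate 3 was, 3 when day 14 replicate 1 or day 0 replicate 1 or 2 was, and 0 with the spike ratio as a covariate.

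CASQ2, the calcium buffer of slow and heart muscle, went the other way, with signals of 1110.4, 1110.8 and 1116.2 at day 14, against 4377.2, 1660.9 and 4793.3 at day 0. The 3 day 14 arrays gave nearly the same value, and the day 0 arrays spread widely above them. CASQ2 fell by 1.55 ± 0.40 (adjusted p = 0.0224). It missed the threshold when any 1 day 14 or day 0 array other than day 0 replicate 2 was left out (adjusted p = 0.0541 to 0.0692). Of 12 developmental genes sought, 6 were in the probe table and tested. The myosin heavy chain genes MYH3 and MYH8 carried no symbol there, so their change was not read. Among the 6 tested, ACTC1, the actin of heart and fetal skeletal muscle, had signals of 9505.8, 15732.8 and 10120.7 at day 14, against 30752.6, 29767.5 and 41247.7 at day 0. It fell by 1.55 ± 0.22 (adjusted p = 0.00159), with 0 rises in the list, and the change from day 0 was -0.23 at day 7 and -1.24 at day 21. TNNT2, cardiac troponin T, also present in fetal muscle, changed by 0.91 ± 0.57 (adjusted p = 0.314), without passing.

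**Figure D4:**
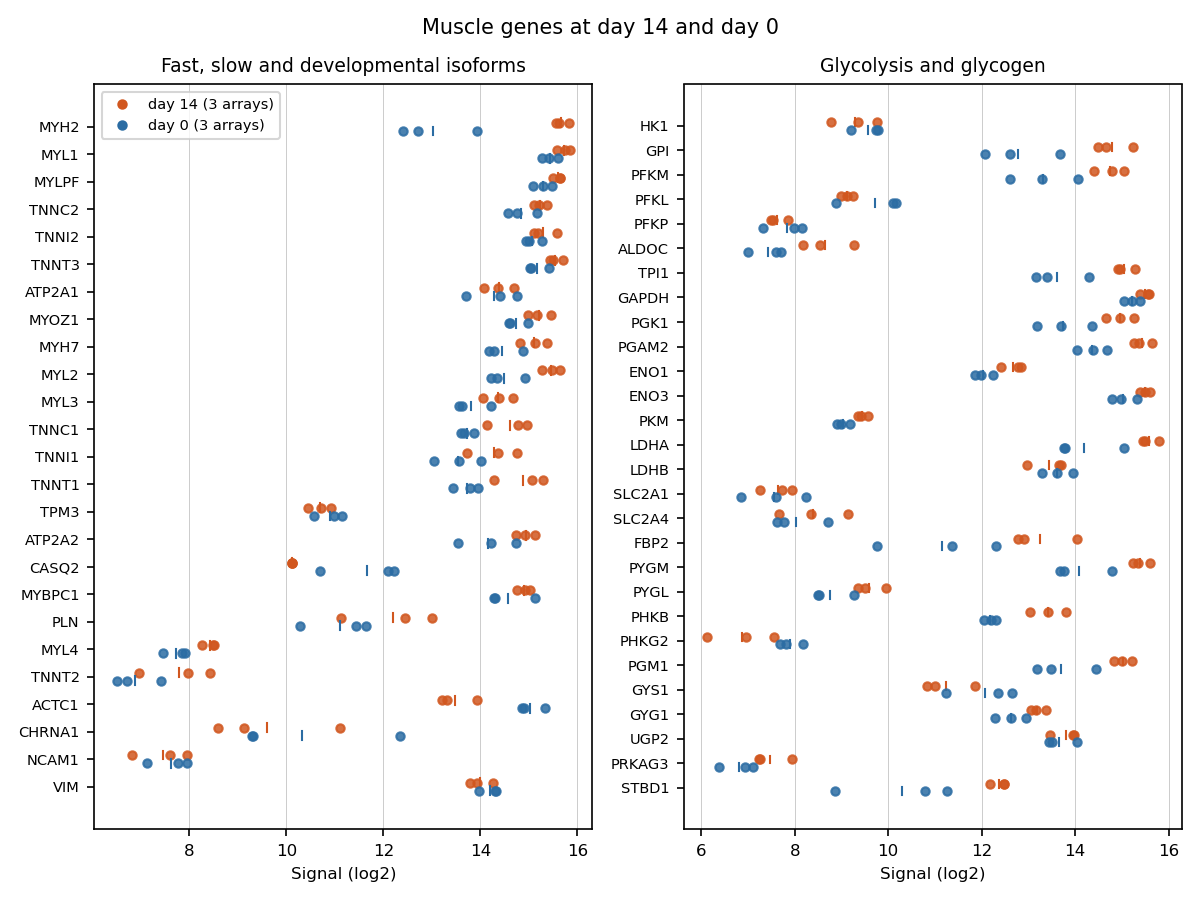
Log2 signal at day 14 and day 0 of all tested members of the fast, slow and developmental isoform lists (left) and of the glycolysis and glycogen lists (right), one point per array and a bar at the mean of 3. MYH2 is separated by the widest gap among the fast genes, and most glycolytic genes have day 14 points to the right of their day 0 points.

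Z-disc and titin-associated genes were mixed, with 5 of 17 that rose, 1 that fell and a median of 0.07. These shares were 29.4% and 5.88%, against 7.25% and 8.55% of all genes tested. CAPN3, the muscle calpain held by titin, had signals of 2582.8, 3649.7 and 4326.9 at day 14, against 1312.1, 1059.8 and 1686.4 at day 0, and rose by 1.37 ± 0.22 (adjusted p = 0.00265). TMOD4, which caps thin filaments in skeletal muscle, rose by 1.28 ± 0.30 (adjusted p = 0.0157), with an adjusted p of 0.0565 without day 14 replicate 2 and 0.0573 without day 14 replicate 3. TCAP, the titin cap, fell by 0.69 ± 0.17 (adjusted p = 0.0186), with 0.0761, 0.0518 and 0.0546 without day 14 replicate 2, day 14 replicate 3 and day 0 replicate 2. TTN, titin itself, changed by 0.43 ± 0.12 (adjusted p = 0.0389), or 0.06 on the hybridization control scale. It missed the threshold without any 1 day 14 or day 0 array other than day 0 replicate 3 (0.0801 to 0.119). The ages did not overlap for CAPN3, but the mean of its probe sets changed by 0.72 (adjusted p = 0.0299). Under hybridization control scaling 2 of the list rose and 3 fell. Leaving out day 14 replicate 2 or 3 gave 1 rise in the list, and leaving out day 14 replicate 1 or day 0 replicate 1 or 2 gave 2.

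Regulators of muscle growth changed in few members, and of all genes tested 7.25% rose and 8.55% fell. Of 8 myogenic factors 1 rose and 0 fell: MEF2A, a partner of the MyoD family, had signals of 1945.6, 2028.3 and 1969.4 at day 14, against 1098.4, 1388.7 and 1232.5 at day 0, and rose by 0.68 ± 0.15 (adjusted p = 0.0111). MYOD1, MYF5 and MYF6 of the MyoD family did not pass. They changed in turn by 0.48 ± 0.26 (adjusted p = 0.239), -0.38 ± 0.46 (adjusted p = 0.632) and -0.61 ± 0.44 (adjusted p = 0.397). MYOG, another member of that family, carried no symbol in the probe table and was not read. MYF6 signals were 985.3, 1190.3 and 1465.2 at day 14, against 3556.5, 1631.9 and 1051.5 at day 0, and overlapped. MSTN was the 1 of 13 myostatin pathway genes that rose (7.69%, against 7.25% of all genes tested), with 0 falls among the rest. In the fit lacking day 14 replicate 1, 2 of the 13 rose. Of 10 genes of the IGF and growth hormone axis 3 rose and 0 fell, at a median of 0.15. Scaling to the hybridization controls left 0 rises and 1 fall (median -0.22), and 0 passed with the spike covariate (median -0.21) or with only the 6 arrays compared. IGF1, a growth factor of muscle, had signals of 458.6, 339 and 404.4 at day 14, against 211, 125.5 and 214.2 at day 0, and rose by 1.16 ± 0.24 (adjusted p = 0.00883). GHR, the growth hormone receptor, rose by 1.06 ± 0.24 (adjusted p = 0.0146), which was 0.0667 without day 14 replicate 3, leaving 1 rise in the list. IGF2, the fetal growth factor, had signals of 18336.5, 13436.4 and 12804.1 at day 14, against 15045.1, 22290.8 and 21995.1 at day 0, a change of -0.41 ± 0.19 that did not pass (adjusted p = 0.167).

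Among 11 imprinted genes, which are read from 1 parent's copy, 2 fell (18.2%, against 8.55% of all genes tested) and 0 rose, with a median of -0.55. MEG3, a maternally expressed long RNA, had signals of 459.1, 363.5 and 379.9 at day 14, against 1130, 1736 and 1738.9 at day 0, and fell by 1.92 ± 0.21 (adjusted p = 0.000634). PEG10, a paternally expressed gene derived from a retrotransposon, had signals of 683.8, 987.6 and 343.4 at day 14, against 1853.7, 3173.9 and 1982.7 at day 0, and fell by 1.88 ± 0.37 (adjusted p = 0.00667). Neither gene overlapped between the ages. Another probe set of PEG10 went the other way, and the mean of both changed by -0.26 (adjusted p = 0.695). With day 0 replicate 1 left out 4 of the 11 fell, and on the hybridization control scale 6 did.

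Glycolysis, which splits glucose to lactate, was among the lists with most rises. Of 18 glycolytic genes 9 rose (50%, against 7.25% of all genes tested) and 0 fell, with a median of 0.55. GPI, which makes fructose 6-phosphate, had signals of 22868, 38516.4 and 25935.5 at day 14, against 4320.4, 6267.9 and 13029 at day 0, and rose by 2.01 ± 0.31 (adjusted p = 0.00237). TPI1, which interconverts the triose phosphates, had signals of 31698.3, 39916.5 and 30928.2 at day 14, against 10784.2, 9112 and 20156.4 at day 0, and rose by 1.43 ± 0.25 (adjusted p = 0.00376). LDHA, the muscle lactate dehydrogenase chain, had signals of 44632.7, 57149.3 and 46402.2 at day 14, against 14087.5, 13877.7 and 33655.4 at day 0, and rose by 1.39 ± 0.27 (adjusted p = 0.00627). For each of these day 0 replicate 3 was the highest newborn array and lay nearest to day 14, without overlap. PFKM, the muscle phosphofructokinase, rose by 1.43 ± 0.28 (adjusted p = 0.007) and PGAM2, the muscle phosphoglycerate mutase, by 1.05 ± 0.17 (adjusted p = 0.00265). On the hybridization control scale the median was 0.19, with 7 rises and 1 fall, and with the spike ratio as a covariate 2 rose.

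Glycogen, the store that feeds glycolysis, gave 5 rises and 0 falls among 10 genes, with a median of 0.75. PYGM, muscle glycogen phosphorylase, had signals of 38398.7, 49989.9 and 41560.4 at day 14, against 13060.4, 13930 and 28133.1 at day 0, and rose by 1.32 ± 0.24 (adjusted p = 0.00434), or by 1.98 as the mean of its probe sets. PHKB, a subunit of the kinase that activates it, had signals of 8349.1, 14377.3 and 10883.2 at day 14, against 4735.7, 4257.8 and 5043.4 at day 0, and rose by 1.23 ± 0.18 (adjusted p = 0.00166). STBD1, which binds glycogen to membranes, had signals of 4644.5, 5692.5 and 5670.9 at day 14, against 462.5, 1767.1 and 2452.9 at day 0, and rose by 2.07 ± 0.43 (adjusted p = 0.00894). No values of these 3 genes overlapped, as in nearly all genes that passed. The lowest STBD1 value at day 0, in replicate 1, was far below the others of that age. PGM1, which links glycogen to glycolysis, rose by 1.32 ± 0.25 (adjusted p = 0.00551). After hybridization control scaling 4 of the 10 rose and 2 fell, and with the spike covariate 2 rose.

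Of 14 genes of creatine and the redox shuttles 3 rose (21.4%, against 7.25% of all genes tested) and 0 fell. Beside GAMT these were both glycerol phosphate dehydrogenases, which pass cytosolic electrons to mitochondria. GPD1, the cytosolic one, had signals of 7364.6, 11122.9 and 10469.6 at day 14, against 1067.2, 1117.9 and 4639.8 at day 0, and rose by 2.43 ± 0.42 (adjusted p = 0.00387). GPD2, the mitochondrial one, rose by 1.20 ± 0.28 (adjusted p = 0.0151), which was 0.0506 without day 14 replicate 2 and 0.0569 without day 14 replicate 3. With day 0 replicate 3 left out 5 of the 14 rose. AMPD1, the muscle AMP deaminase of the purine cycle, was not 1 of these 3 rises. It had signals of 20613, 22414.5 and 27822.1 at day 14, against 6765.2, 9569.7 and 9155 at day 0, and rose by 1.48 ± 0.18 (adjusted p = 0.000887).

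Few genes of mitochondrial oxidation passed. Of 60 oxidative phosphorylation genes 4 rose (6.67%) and 2 fell (3.33%), with a median of 0.05. Of all genes tested 7.25% rose and 8.55% fell. On the hybridization control scale the median of the 60 was -0.32, with 0 rises and 12 falls. COX7A1, the muscle isoform of a cytochrome oxidase subunit, had signals of 18217, 24786 and 21886.1 at day 14, against 11806.6, 9694 and 16000.9 at day 0, and rose by 0.81 ± 0.18 (adjusted p = 0.0123), with 0.0512 without day 14 replicate 2. COX6A1, the widely expressed isoform of another subunit, had signals of 2755.6, 2396.4 and 2176.8 at day 14, against 3925.6, 3553.9 and 3878.5 at day 0, and fell by 0.64 ± 0.16 (adjusted p = 0.0233), with 0.0677 without day 14 replicate 2 and 0.093 without day 14 replicate 3. The list held 0 rises and 0 falls with day 14 replicate 2 left out, 1 rise with day 14 replicate 3 or day 0 replicate 2 left out, 8 rises with day 0 replicate 3 left out and 5 falls with day 0 replicate 1 left out. Of 23 citric acid cycle genes 1 rose and 1 fell: PC, pyruvate carboxylase, rose by 1.95 ± 0.34 (adjusted p = 0.00387) and IDH3B, a subunit of isocitrate dehydrogenase, fell by 0.87 ± 0.19 (adjusted p = 0.0113). Of 23 genes of fatty acid oxidation 2 rose (8.7%) and 1 fell (4.35%). UCP3, a mitochondrial carrier of muscle, had signals of 1107.6, 1057 and 1185.7 at day 14, against 309.1, 355.7 and 250.6 at day 0, and rose by 1.88 ± 0.25 (adjusted p = 0.00135). ACADVL, the very long-chain acyl-CoA dehydrogenase, fell by 0.70 ± 0.15 (adjusted p = 0.0103). The mean of its probe sets changed by -0.54 and did not pass (adjusted p = 0.0699). Over single left-out arrays the rises ran from 1 to 3 in the citric acid cycle and from 1 to 4 in fatty acid oxidation, in each case highest with day 0 replicate 3 left out.

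Genes of calcium release and its targets gave 6 rises and 2 falls among 19, and the median change was 0.39. These shares were 31.6% and 10.5%, against 7.25% and 8.55% of all genes tested. Scaling to the hybridization controls gave 4 rises and 4 falls with the median at 0.02, and with the spike covariate 2 rises and 1 fall. CAMK2G, a calcium and calmodulin kinase, had signals of 2762.7, 3702.2 and 2904.5 at day 14, against 539.1, 1010 and 1213.4 at day 0, and rose by 1.83 ± 0.24 (adjusted p = 0.00134). CALM2, a calmodulin gene, had signals of 7865.1, 8278 and 6776.4 at day 14, against 2820.5, 2906.2 and 4285.7 at day 0, and rose by 1.22 ± 0.17 (adjusted p = 0.00159). CACNA2D1, an accessory subunit of the voltage sensor, had signals of 10128.4, 15159.4 and 10813.7 at day 14, against 4576.2, 3095.5 and 7386.6 at day 0, and rose by 1.33 ± 0.26 (adjusted p = 0.00682). S100A1, a calcium sensor of striated muscle, rose by 1.83 ± 0.36 (adjusted p = 0.0071). The values of these genes did not overlap between the ages, as in nearly all genes that passed, and the falls were RCAN1 and CASQ2.

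Several lists of protein synthesis, folding and breakdown held more falls than rises, though in each of them some or most members did not pass. Of 39 proteasome genes, the subunits of the particle that degrades ubiquitin-tagged proteins, 17 fell and 1 rose, with a median of -0.55 against -0.04 for all genes (453 of 5296 fell). PSMD3, a subunit of the regulatory cap, had signals of 1269.1, 1412.4 and 1284.8 at day 14, against 3781.6, 3188.9 and 2062.2 at day 0, and fell by 1.14 ± 0.20 (adjusted p = 0.00387). PSMB7, a catalytic subunit of the core, had signals of 3606.1, 4077.6 and 3026 at day 14, against 5982.4, 9731.3 and 7118.8 at day 0, and fell by 1.07 ± 0.18 (adjusted p = 0.00353). PSMD1, a scaffold of the cap, had signals of 3450.6, 3847.7 and 3500.1 at day 14, against 8262.9, 6941.9 and 5318.2 at day 0, and fell by 0.90 ± 0.16 (adjusted p = 0.00387). In all 3 the newborn arrays spread more than the day 14 arrays, and the ages did not overlap, as in nearly all genes that passed.

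PSMB2 and PSMA4, further core subunits, fell by 1.02 ± 0.18 (adjusted p = 0.00385) and 0.80 ± 0.14 (adjusted p = 0.00462). The 1 proteasome gene that rose was PSMB8, which replaces a core subunit in the immunoproteasome, is also on the interferon list and changed by 1.74; it was named after its value was seen. With day 14 replicate 3 left out 0 proteasome genes rose. The count of falls was 9, 10, 11 and 25 when day 14 replicate 1, day 14 replicate 3, day 0 replicate 2 and day 0 replicate 3 was left out in turn, and 4 with the spike ratio as a covariate. It was 29 on the hybridization control scale and 6 with only the 6 arrays compared.

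Chaperones, which fold proteins, gave 17 falls and 0 rises among 35 genes, with a median of -0.62. HSPA9, the mitochondrial member of the HSP70 family, had signals of 7007.1, 7407.7 and 7357.7 at day 14, against 16353.4, 15138.9 and 12632.1 at day 0, and fell by 1.01 ± 0.13 (adjusted p = 0.00124). HSPD1, the mitochondrial chaperonin HSP60, had signals of 7392.7, 6466.3 and 6458.9 at day 14, against 16945.1, 14128.6 and 11642.3 at day 0, and fell by 1.06 ± 0.16 (adjusted p = 0.00214). HYOU1 of the endoplasmic reticulum fell by 1.18 ± 0.21 (adjusted p = 0.00434), and TCP1, a subunit of the cytosolic chaperonin, by 0.96 ± 0.18 (adjusted p = 0.00564). The falls took in chaperones of the mitochondria, the endoplasmic reticulum and the cytosol. The count was 10 with day 14 replicate 2 left out and 9 with day 14 replicate 3 left out, and with the spike ratio as a covariate 2 fell, or 4 with only the 6 arrays compared.

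Small heat shock proteins, which bind unfolding proteins and protect the sarcomere, had 3 falls and 0 rises among 7 genes. HSPB7, a form enriched in heart and skeletal muscle, had signals of 1763.9, 1166.3 and 1594.4 at day 14, against 11202, 9191.6 and 4977.3 at day 0, and fell by 2.43 ± 0.31 (adjusted p = 0.00108). CRYAB, alpha B crystallin, had signals of 11918.9, 6426.6 and 10436.2 at day 14, against 31178.4, 25974.9 and 18814.2 at day 0, and fell by 1.42 ± 0.25 (adjusted p = 0.0043). HSPB1, or HSP27, fell by 1.13 ± 0.28 (adjusted p = 0.0199), and its adjusted p was 0.0719, 0.0508, 0.0625 and 0.0715 without day 14 replicates 2 and 3 and day 0 replicates 1 and 2. In all 3 genes the third newborn array was lowest of its age and still above day 14, which for HSPB7 the choice of the largest falls required.

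**Figure D5:**
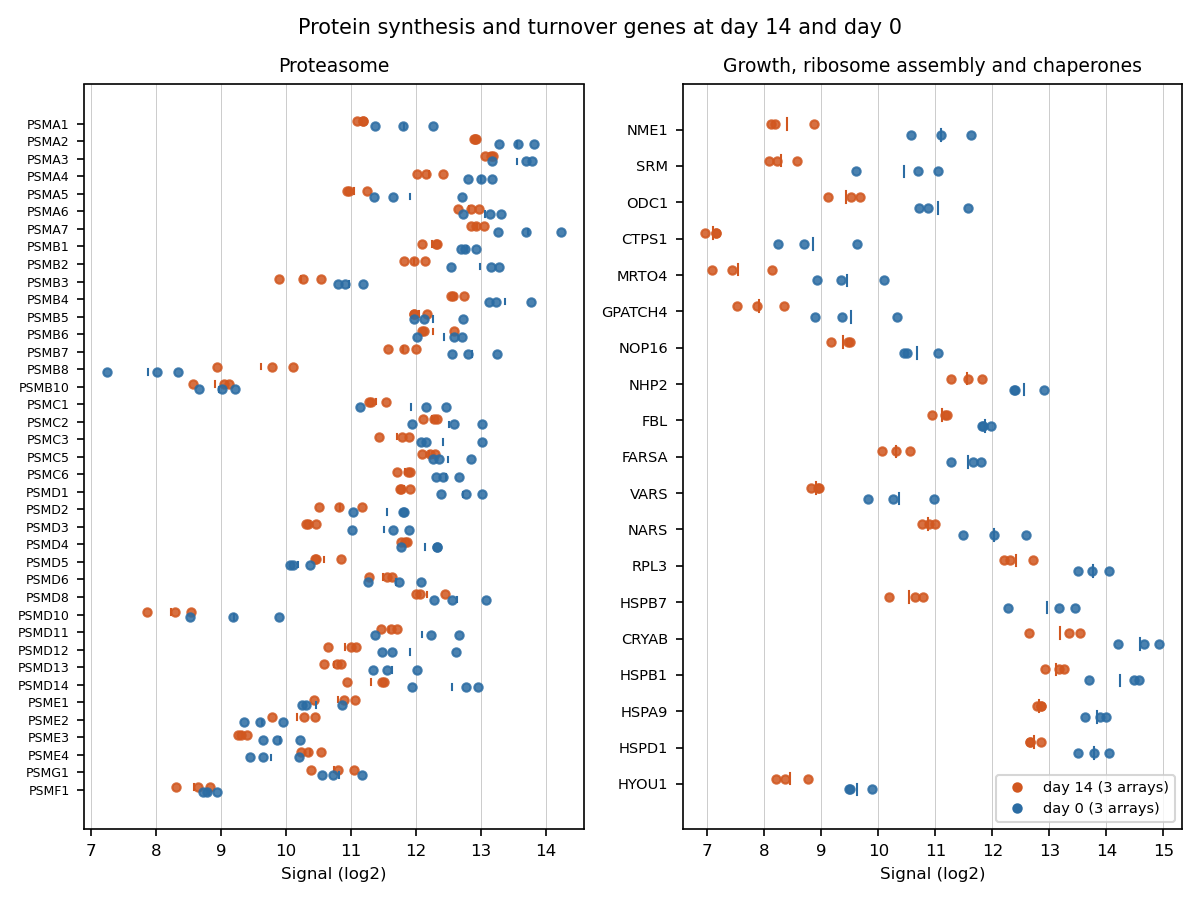
Log2 signal at day 14 and day 0 of all 39 tested proteasome genes (left) and of named genes of growth, ribosome assembly, translation and chaperones (right), one point per array and a bar at the mean of 3. Most rows have their day 14 points to the left, and PSMB8 has them to the right.

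Ribosome assembly factors, which build ribosomes in the nucleolus, gave 13 falls (23.6%, against 8.55% of all genes tested) and 2 rises among 55 genes, with a median of -0.60. MRTO4, an assembly factor of the large subunit, had signals of 280.1, 134.6 and 172.6 at day 14, against 1094.2, 646.4 and 487.2 at day 0, and fell by 1.91 ± 0.33 (adjusted p = 0.00373). NOP16, a nucleolar protein, had signals of 722.7, 704.8 and 576.7 at day 14, against 2117.3, 1453.8 and 1404 at day 0, and fell by 1.29 ± 0.19 (adjusted p = 0.00174). FBL, the methyltransferase fibrillarin, fell by 0.77 ± 0.15 (adjusted p = 0.00682). GPATCH4, a nucleolar protein, fell by 1.62 ± 0.32 (adjusted p = 0.00708). NHP2, a protein of box H/ACA particles, fell by 1.01 ± 0.19 (adjusted p = 0.00627), but another probe set went the other way, and the mean of both gave an adjusted p of 0.102. BUD23, 1 of the 2 rises, had probe sets called in opposite directions and was named after its value was seen. Leaving out day 14 replicate 2 or 3 gave 8 falls, and leaving out day 0 replicate 3 gave 22. There were 31 falls and 0 rises (median -0.97) on the hybridization control scale, 21 falls and 0 rises with median centring, and 6 falls with the spike covariate or only the 6 arrays compared.

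Of 48 translation factors and tRNA synthetases 13 fell (27.1%, against 8.55% of all genes tested) and 0 rose, with a median of -0.40. FARSA and FARSB, the chains of the phenylalanyl-tRNA synthetase, fell by 1.27 ± 0.18 (adjusted p = 0.00157) and 1.16 ± 0.20 (adjusted p = 0.00393). VARS, the valyl-tRNA synthetase, had signals of 449.4, 491.1 and 497.2 at day 14, against 1228.4, 2016.3 and 903.4 at day 0, and fell by 1.45 ± 0.26 (adjusted p = 0.0043). NARS, the asparaginyl enzyme, fell by 1.16 ± 0.24 (adjusted p = 0.00905) and EPRS, which charges glutamate and proline, by 0.98 ± 0.19 (adjusted p = 0.00641). Every gene named here was separated between the ages, as were nearly all genes that passed. With either of these arrays left out, day 14 replicate 2 or day 14 replicate 3, 7 fell, and without day 0 replicate 3, 19 did. The count was 30 on the hybridization control scale, at a median of -0.77, 5 with only the 6 arrays compared and 1 with the spike covariate.

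The proteins of the ribosome itself gave 4 falls (6.67%, against 8.55% of all genes tested) and 0 rises among 60 genes, at a median of -0.14. RPL3, of the large subunit, had signals of 6703.2, 4705 and 5099.1 at day 14, against 13770.8, 16995.2 and 11649.4 at day 0, and fell by 1.36 ± 0.18 (adjusted p = 0.00141). On the hybridization control scale 49 of the 60 fell with a median of -0.50, while 20 fell with quantile normalization, 10 with median centring and 1 with the spike covariate or only the 6 arrays compared. The count was 1 when day 14 replicate 1 or 2 or day 0 replicate 2 was left out, 2 when day 14 replicate 3 was, and 11 when day 0 replicate 1 was.

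Polyamine and nucleotide synthesis, which dividing and growing cells use, gave 9 falls and 2 rises among 19 genes, with a median of -0.64. The highest change in the list was 1.48, and 5 members were higher and 14 lower. Its summed signal was higher at day 14 (76748.6 to 81232) than at day 0 (60733.2 to 63982.7), and the genes named here are falls. NME1, a nucleoside diphosphate kinase, had signals of 465.8, 291.9 and 276.3 at day 14, against 3138.2, 2204.4 and 1516.9 at day 0, and fell by 2.71 ± 0.28 (adjusted p = 0.000373). SRM, which makes spermidine, had signals of 298.1, 379.6 and 271.1 at day 14, against 1658.6, 2125.6 and 783.7 at day 0, and fell by 2.16 ± 0.29 (adjusted p = 0.00141). ODC1, which starts polyamine synthesis, had signals of 821.8, 731.6 and 555.2 at day 14, against 3061.4, 1863.3 and 1676.4 at day 0, and fell by 1.61 ± 0.24 (adjusted p = 0.00187). No values of these genes overlapped, which for NME1 and SRM the choice of the largest falls required. CTPS1, which makes CTP, fell by 1.77 ± 0.30 (adjusted p = 0.00372). The list held 5 falls with the spike covariate, and 6 when replicate 2 or 3 of day 14 or replicate 2 of day 0 was left out.

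Of 35 cell cycle genes tested 6 rose (17.1%, against 7.25% of all genes tested) and 1 fell (CDKN3), with a median of 0.51. The median change from day 0 was 1.64 at day 7 and 1.10 at day 21 with the same day 0 arrays. The members' mean deviations were 0.19, -0.01 and -0.56 at day 14, against -1.28, -0.89 and -0.16 at day 0, which overlapped. Summed signals also overlapped, 19156.7 to 23686.1 at day 14 and 20715.8 to 24062.4 at day 0. Means of 10 of the 35 lay below the brightness limit at day 0, and of 3 at day 14. NUSAP1, of the mitotic spindle, had signals of 495.4, 323.7 and 368.2 at day 14, against 95.2, 124.5 and 220.3 at day 0, and rose by 1.50 ± 0.30 (adjusted p = 0.00716). CKS2, a partner of cyclin-dependent kinases, had signals of 755.3, 407.5 and 538 at day 14, against 295.5, 173.5 and 273.5 at day 0, and rose by 1.19 ± 0.25 (adjusted p = 0.0102). NDC80, of the kinetochore, rose by 1.75 ± 0.40 (adjusted p = 0.0145). CCNB1, cyclin B1, had signals of 350.5, 359.9 and 115.9 at day 14, against 5, 8.1 and 149.1 at day 0, which overlapped through day 0 replicate 3 and day 14 replicate 3. Its change of 3.75 ± 0.93 (adjusted p = 0.0198) missed the threshold without day 14 replicate 1 (0.0609), day 14 replicate 2 (0.0698), day 0 replicate 1 (0.0636) or day 0 replicate 2 (0.0758). With day 0 replicate 3 left out 11 cell cycle genes rose, with day 14 replicate 1 or 2 left out 3 did, and with the spike ratio as a covariate 0 did. The hybridization control scale gave 3 rises and 2 falls.

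Outside the hypoxia list few members of the remaining lists passed, and of all genes tested 7.25% rose and 8.55% fell. Of 14 hypoxia-response genes 4 rose (28.6%) and 0 fell. Their median was 0.59, against -0.04 for all genes, with 12 higher and 2 lower. Among the rises was EPAS1, the hypoxia-inducible factor of endothelium, by 1.21 ± 0.28 (adjusted p = 0.0157, 0.0535 without day 14 replicate 2 and 0.0508 without day 14 replicate 3). The hypoxia list held 1 rise when day 14 replicate 2 was left out and 2 rises when day 14 replicate 3 was, and 1 on the hybridization control scale. Of 29 antioxidant genes 3 rose and 2 fell: SELENOW, a selenoprotein of muscle, rose by 1.56 ± 0.26 (adjusted p = 0.00354) and PRDX1, a peroxidase, fell by 1.30 ± 0.24 (adjusted p = 0.00495). When day 14 replicate 3 was left out 1 of the 29 rose and 1 fell, and when day 0 replicate 3 was left out 4 fell. SELENOW had signals of 3648.9, 4860.9 and 4708.8 at day 14, against 1127.7, 1359.6 and 2137.4 at day 0. All its day 14 values lay above day 0.

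Of 15 genes of cholesterol and lipid synthesis 1 rose and 2 fell. NSDHL, of the cholesterol pathway, fell by 1.58 ± 0.29 (adjusted p = 0.00498; adjusted p = 0.0825 for the mean of its probe sets), and DGAT2, which makes triglyceride, rose by 2.08 ± 0.52 (adjusted p = 0.0212). The adjusted p of DGAT2 was 0.0535, 0.0841 and 0.0744 without day 14 replicate 1, day 14 replicate 3 and day 0 replicate 2. Of 32 extracellular matrix genes 1 rose and 2 fell. COL15A1, a collagen of basement membranes, had signals of 5547.5, 6016.6 and 4520.2 at day 14, against 1525.8, 1937.2 and 3889.1 at day 0, and rose by 1.24 ± 0.27 (adjusted p = 0.0126). Its ages did not overlap, though day 0 replicate 3 came near the lowest day 14 array. No matrix gene fell in the fits lacking day 14 replicate 2, day 14 replicate 3 or day 0 replicate 2. Among 21 atrophy and autophagy genes 2 rose and 0 fell, of which 1 was CAPN3. Of 14 glucocorticoid-response genes 1 rose (7.14%, against 7.25% of all genes tested). This was the receptor NR3C1 itself, which rose by 1.08 ± 0.25 (adjusted p = 0.0162, 0.0507 without day 14 replicate 2). Of 15 immediate early genes 1 rose (6.67%). JUN, a subunit of the transcription factor AP-1, had signals of 10385.5, 6283.4 and 7720.1 at day 14, against 4228.2, 3421.1 and 4324.2 at day 0 (adjusted p = 0.047). Its adjusted p was 0.0565 to 0.148 without any 1 day 14 or day 0 array.

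Few probe sets passed between day 14 and the ages beside it. Between day 14 and day 7, 1 of 14399 probe sets passed in limma (0.00694%), with 857 at an unadjusted p under 0.05, and 0 passed when any 1 of the 3 day 14 arrays, day 0 replicate 2 or day 21 replicate 1 was left out. Between day 21 and day 14, 0 passed, with 436 at an unadjusted p under 0.05 and a lowest adjusted p of 0.999802. A p that misses the threshold does not show that levels were equal.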

How the data were processed

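Skeletal muscle RNA of 12 samples was labelled with biotin and hybridized to Affymetrix porcine arrays, 1 colour and 1 array per sample, 3 at each of 4 ages. The authors deposited 1 intensity per probe set on a linear scale. It came from MAS5, according to the submitters' processing notes, whose version is not given in the sources used here, and detection calls were not used. The trimmed mean was 500.1 in every array, and the median signal 145.4 to 171.7, so no further normalization was applied.

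Of 24123 probe sets, 124 controls were left out, then the lowest 40% by mean log2 signal. Symbols came from the probe table: 10099 probe sets carried 1 symbol, 198 several and 13826 none, and Entrez identifiers tied 9989 to current names with 0 symbols altered. A gene is read from the brightest of its tested probe sets, and 1396 of 5296 genes had more than 1. Of 105 genes with more than 1 called probe set, 3 had opposite calls (BUD23, SLA-DMA and SRSF6). No symbol named 708 of the called probe sets uniquely.

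A mean per age was fitted over all 12 arrays to log2 signal in limma 3.58.1 (R 4.3.3) with eBayes and a mean-variance trend, so the spread is shared by the 4 ages. Named genes are the 15 largest rises and 15 largest falls among genes that passed without overlap, up to 5 passing members per list in order of p, and a few muscle genes always. Samples, gene lists, the naming rule and the alternatives, including hybridization control scaling (27 probe sets) and the spike ratio (4 spikes) as a covariate, were chosen with earlier results of these data known. Other alternatives were no filter, leaving out the lowest 60%, quantile normalization, median centring, an added offset of 29.7, array weights and no variance trend. Further ones were a fit to the 6 arrays alone, averaging all probe sets of a gene, the replicate number as a block and leaving out each array. For genes and lists, only day 14 and day 0 arrays were left out in turn. The fit was tested on simulated data for day 14 against day 0: of 14399 probe sets, 40 of 100 changed 2-fold and 88 of 100 changed 4-fold were recovered, with 11 unchanged ones called. The simulated noise was independent between probe sets, and far fewer probe sets were changed than the 1777 that passed in the real comparison. Tables and figures were made with pandas 2.3.3, numpy 2.4.6 and matplotlib 3.10.9 in Python 3.11.15.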

Additional observations from a re-analysis of the deposited data

Results flagged for a closer look

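A probe set that has no symbol in the probe table was the 1 probe set whose change from day 0 differed between day 14 and day 7. Its signals were 219, 168.1 and 221.2 at day 14 and 3732.2, 5684.8 and 6929.3 at day 0. They were 3292.2, 1398.9 and 1261 at day 7 and 99.1, 68.5 and 165.7 at day 21. The change at day 14 minus that at day 7 was -3.16 ± 0.38 on the log2 scale (limma adjusted p = 0.0182), and no day 14 value overlapped day 7. The count of probe sets called between these ages was 0 when any 1 of the 3 day 14 arrays, day 0 replicate 2 or day 21 replicate 1 was left out. From day 0 it was -1.55 at day 7, -4.71 at day 14 and -5.67 at day 21, all 3 against the same day 0 arrays.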

How the results depend on the processing

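The count of probe sets called between day 14 and day 0 (1777, with 971 higher and 806 lower, 590 and 314 of them at least 2-fold) depended on the scale and on the arrays fitted. On the hybridization control scale it was 2950, with 396 higher, 2554 lower, 256 at least 2-fold higher and 1280 at least 2-fold lower. With only the 6 arrays compared it was 591, with 358, 233, 328 and 185, and with the spike ratio as a covariate 498, with 304, 194, 253 and 147. Median centring gave 1226 lower, 509 of them at least 2-fold, and array weights gave 531 lower. Leaving out 1 array gave 792 to 2036 in all, 462 to 1143 higher, 330 to 893 lower, 357 to 774 at least 2-fold higher and 207 to 446 at least 2-fold lower. Between day 14 and day 7 the count of 1 became 2 with quantile normalization or hybridization control scaling, 0 without a variance trend or with the spike covariate, and 0 to 3 when 1 array was left out. Between day 21 and day 14 it was 0 under every alternative run. Causes were not tested.

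Of 147 named genes that passed, 55 passed under all alternatives run, 83 missed the threshold with the spike covariate, 55 with only the 6 arrays and 32 on the hybridization control scale. The change of MYF5, which did not pass, turned to 0.053 with the spike covariate and ran from -0.85 to 0.12 over left-out arrays. RPS12 changed by -0.44 (adjusted p = 0.0474) and by 0.025 with the mean of its probe sets (adjusted p = 0.952). As a check of pairing, deviations of day 14 and day 0 arrays with the same number correlated at -0.03, -0.03 and -0.20, and 0 of the 3 day 14 arrays correlated best with its own number. With the replicate number as a block 1550 probe sets passed, 872 higher and 678 lower, and 10 of the 147 named genes missed the threshold. With 3 arrays per age most 2-fold changes were missed in simulated data. Those data held far fewer changed probe sets than the 1777 that passed here, so that recovery need not hold for this comparison. Folds of genes dim at 1 age depend on the offset added.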
